A study of Homo sapiens with 24 samples.

Results

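This report follows 42 genes of nucleolar ribosome biogenesis and RNA polymerase I transcription through 2 human cholangiocarcinoma (bile duct cancer) cell lines exposed to the compound YC-1 or to its solvent DMSO. The genes were taken by symbol from a list of 42 names, and all 42 were found among the 57820 rows of the deposited table and among the 17860 genes tested. They comprise 7 genes of polymerase I transcription, 3 of the box C/D small nucleolar ribonucleoprotein (snoRNP), 4 of the box H/ACA snoRNP, 4 of abundant nucleolar proteins, 13 of small subunit assembly and 11 of large subunit assembly.

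Ribosomes are built in the nucleolus, where RNA polymerase I copies the ribosomal DNA repeats into a long precursor RNA. UBTF and the selectivity factor SL1 assemble on the repeat's promoter, and RRN3 links the polymerase to them. Box C/D snoRNPs methylate the precursor and box H/ACA snoRNPs convert uridines to pseudouridines, while assembly factors fold, cut and export the particles that become the small (40S) and large (60S) subunits. The pathway is a large consumer of energy in dividing tumour cells, and the transcription factor MYC is known to drive many of its genes.

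RBE and SNU1079 are established lines that the labels describe as carrying mutant IDH1 and as high in SULT1A1, a sulfotransferase, and both features are shared by every group. YC-1, also known as lificiguat, is described in the series title as belonging to alkylators that depend on sulfonation. The 8 groups combine the line, the agent (YC-1 or DMSO) and the time (6 h or 16 h), and the submitters describe the 3 libraries of each as biological replicates. No dose is stated. Times were read from the sample titles, with which a separate time label disagrees: it puts all DMSO libraries at 16 h and all YC-1 libraries at 6 h.

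The values are normalised counts per gene, as the authors deposited them. Their sums ran from 19005743 to 21579996 in the 12 DMSO libraries and from 20426118 to 27008873 in the 12 YC-1 libraries. Mitochondrially encoded transcripts made up 6.02% to 8.50% of the sum in DMSO, 15.4% to 17.0% in RBE with YC-1 at 16 h, and 18.1%, 3.38% and 22.1% in the 3 SNU1079 libraries with YC-1 at 16 h. SNU1079 results are also given without DMSO 16 h replicate 1, YC-1 6 h replicate 1 and YC-1 16 h replicate 2, a choice made after the data were seen. Over all genes their root mean square deviations from the group mean were 0.589, 0.562 and 0.567 (log2). YC-1 16 h replicate 3, at 0.568, deviated as much and was kept, so that choice of replicate is not set by the deviation. Of 5 cholangiocyte markers matched, 4 reached 10 normalised counts in each line and CFTR did not. The leukocyte markers PTPRC, CD3D and CD3E stayed below 10 in all libraries, as did COL3A1, DCN, LUM and CDH5 of 7 stromal and endothelial markers and APOA1 and APOB of 6 hepatocyte markers. CD68, also counted as a leukocyte marker, reached 1036 to 4110, LYZ 43.3 to 66.7 in RBE, and SERPINA1 of the hepatocyte list 1134 to 2142. Summed stromal and endothelial markers reached 9.61 to 71.5 in RBE and 683 to 3836 in SNU1079, where nearly all of it was COL1A1. In RBE COL1A1 was 5.40 to 59.4 and COL1A2 reached 17.1.

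Promoter sequence from RefSeq (GRCh38.p14) was matched for 36 members, all but NOP58, NOLC1, RRP12, RRP1B, DDX18 and RRS1. The sequences below lie just upstream of the annotated start, end before any base of the GENCODE gene and run 5′ to 3′ on the gene's strand. Capitals mark CACGTG (the E-box, bound by MYC and other factors) or CCGGAAGT (bound by ETS factors), read on both strands. RRN3 (chr16:15094336-15094455, minus strand) and NOB1 (chr16:69754941-69755046, minus strand) are shown as members higher with YC-1 in all 4 comparisons below. UTP20 (chr12:101279985-101280104, plus strand) was lower in all 4, LTV1 (chr6:143843218-143843337, plus strand) was lower at 16 h in both lines, and DDX10 (chr11:108664949-108665024, plus strand) was called in opposite directions in the 2 lines.
RRN3: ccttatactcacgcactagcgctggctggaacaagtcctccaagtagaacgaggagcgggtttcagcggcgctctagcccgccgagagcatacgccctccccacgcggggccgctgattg
NOB1: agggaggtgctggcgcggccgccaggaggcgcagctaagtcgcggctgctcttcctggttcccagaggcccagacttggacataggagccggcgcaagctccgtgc
UTP20: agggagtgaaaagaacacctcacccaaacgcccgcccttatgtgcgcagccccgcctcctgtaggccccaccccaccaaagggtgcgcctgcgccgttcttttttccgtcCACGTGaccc
LTV1: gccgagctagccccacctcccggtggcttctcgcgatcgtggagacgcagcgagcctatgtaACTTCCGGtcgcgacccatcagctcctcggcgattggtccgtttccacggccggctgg
DDX10: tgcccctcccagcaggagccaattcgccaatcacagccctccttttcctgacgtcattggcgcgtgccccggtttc
CACGTG stood within 250 bases before the start in 3 of the 36 matched members (8.33%; NOP10, UTP20 and EBNA1BP2) and in 8.0% of the 16734 promoters of tested genes. CCGGAAGT stood in 7 of 36 (19.4%; POLR1C, DDX21, GAR1, NOP10, LTV1, DDX56 and GRWD1) and in 5.61% of the promoters of tested genes. The NRF1 motif stood in 4 of 36 (11.1%; MYBBP1A, DKC1, NOB1 and DDX10) against 1.54%, and CCAAT in 12 of 36 (33.3%) against 32.5%. These windows describe letters only. Genes with CCGGAAGT were found among members that were higher (POLR1C, DDX56) and among members that were lower (LTV1) with YC-1.

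With YC-1 the 42 genes split into members that were higher, led by RRN3, NOB1, NOP2 and RRP9, and members that were lower, led by UTP20, RRS1, WDR43 and GNL3. Calls used limma's moderated test on log2(normalised count + 1) with Benjamini-Hochberg adjustment over 17860 genes and an adjusted p under 0.05. In RBE at 6 h, 15 members were higher and 4 lower, where 11.6% of all tested genes were higher and 12.4% lower. In RBE at 16 h, 16 were higher and 12 lower (27.3% and 26.6% of all tested genes). In SNU1079 at 6 h, 12 were higher and 5 lower (14.0% and 14.2%). In SNU1079 at 16 h, 22 were higher and 10 lower (28.7% and 25.8%). As shares of the 42, the members called lower at 16 h made up 28.6% in RBE and 23.8% in SNU1079, near the share of all tested genes, and those called higher made up 38.1% and 52.4%. The median log2 difference of the members was 0.17, 0.15, 0.11 and 0.40 in these 4 comparisons, and that of all tested genes was 0.00, 0.02, 0.01 and 0.06. In bulk libraries fewer cells of a type and less RNA per cell cannot be told apart.

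The 4 comparisons use separate DMSO groups. POLR1C, RRN3, NOP56, NOLC1, BYSL, NOB1, TSR1, NOP2, PES1 and DDX56, 10 of 42 members (23.8%), were higher in all 4, as were 6.18% of all tested genes. UTP20 and RRS1 were lower in all 4 (4.76%), as were 7.50% of all tested genes. In all, 20 members were called higher at least once and never lower, 11 were called lower at least once and never higher, and 8 were called in none: POLR1B, NOP58, GAR1, WDR75, NOP16, WDR12, DDX18 and NIP7. Without the 3 libraries, 6 of these 8 were called: POLR1B and WDR75 (0.46) higher in RBE at 6 h, NOP58 higher in RBE at both times, WDR12 higher in RBE at 16 h, GAR1 (0.52) and WDR75 (0.48) higher in SNU1079 at 6 h, and NIP7 (-0.33) lower in SNU1079 at 16 h. Those 3 libraries are all of SNU1079, so the RBE differences are the same values and only the spread shared by both lines was estimated anew. DDX10, FBL and MYBBP1A were called in both directions. Of these patterns, only those called in all 4 were counted over all tested genes, so the other counts describe the members alone.

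**Figure D1:**
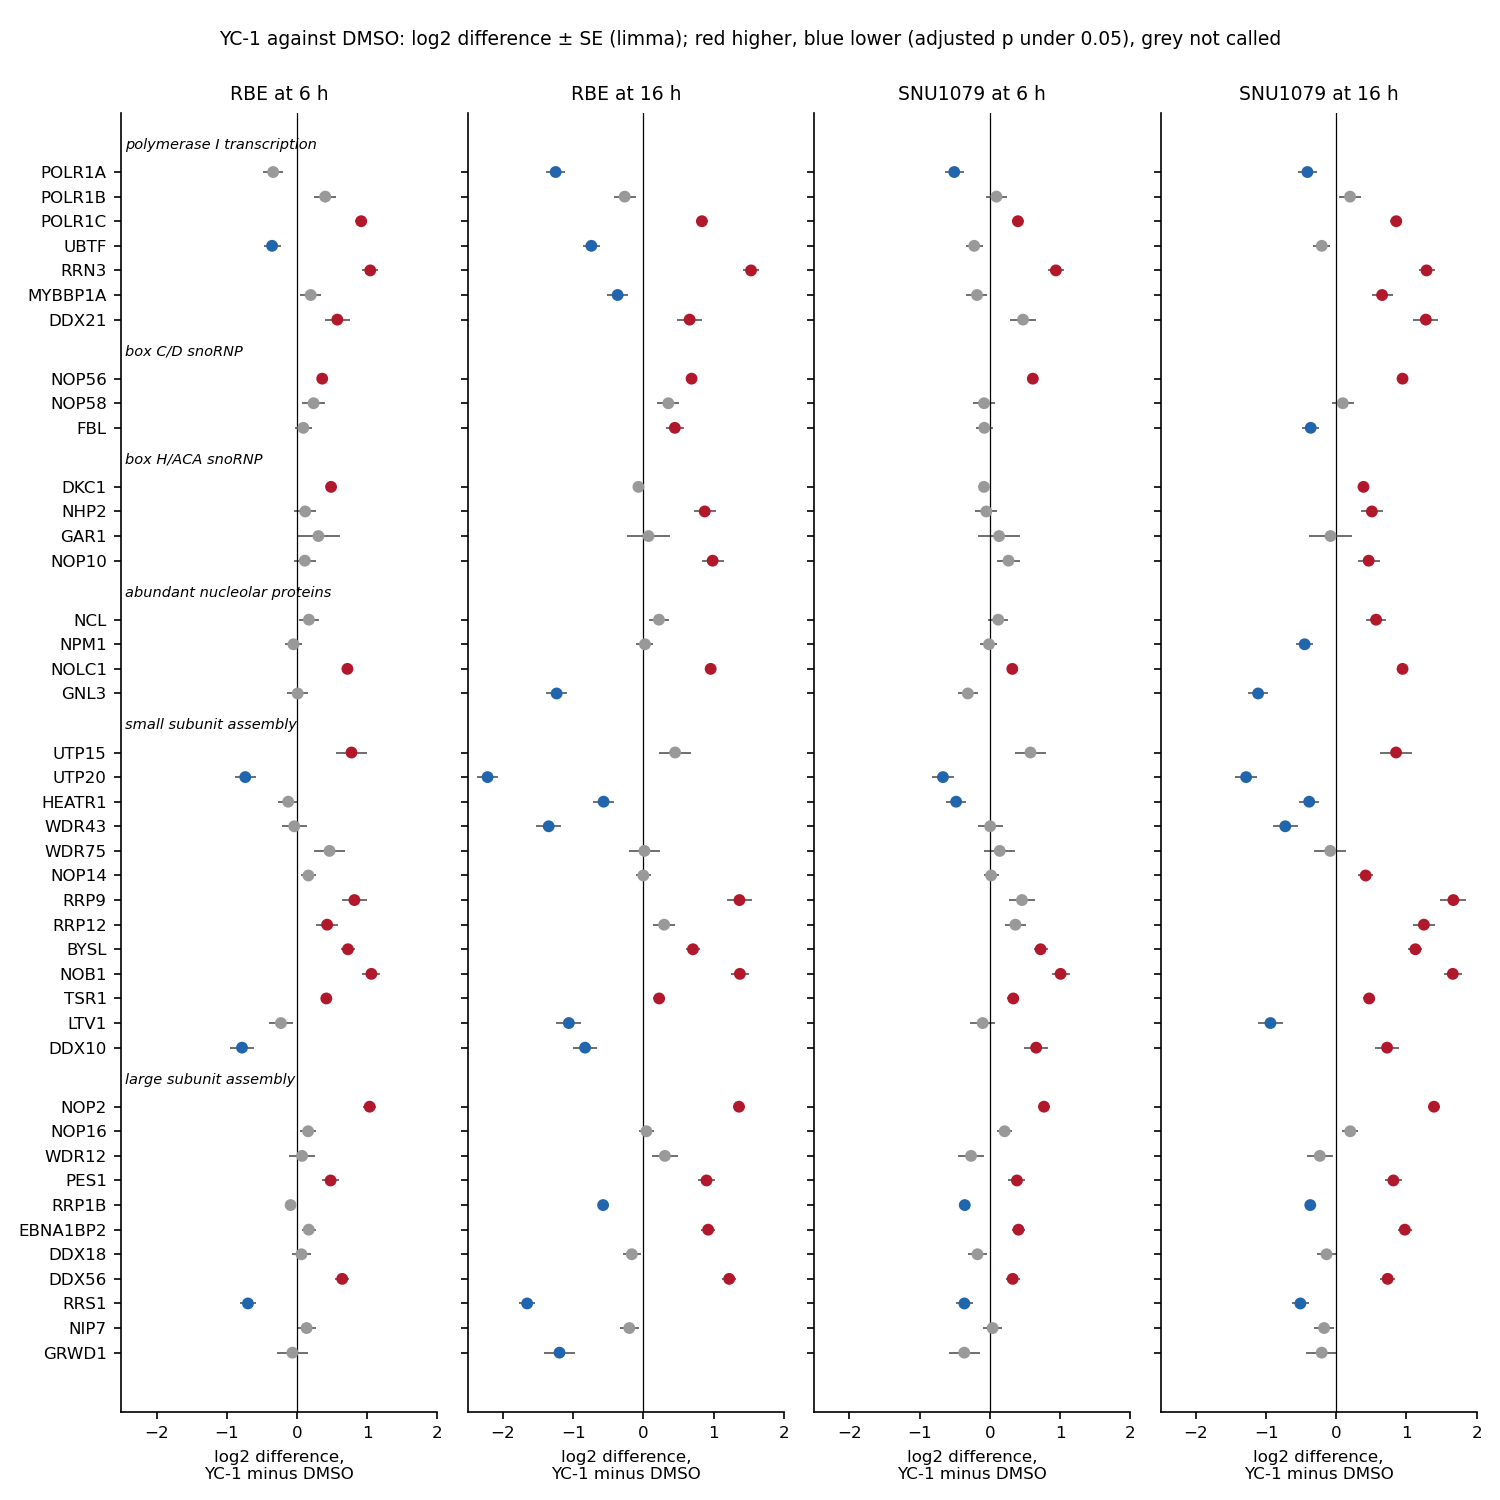
The log2 difference between YC-1 and DMSO (x axis, with its SE) is plotted for each of the 42 members by role, in RBE and SNU1079 at 6 h and 16 h. RRN3, NOB1 and NOP2 sit to the right of 0 in all 4 panels, UTP20 and RRS1 to the left, and DDX10 on opposite sides in the 2 lines.

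Directions at 16 h depend on the scale. The median of all tested genes is near 0 on the authors' scale. It moves by -0.99 in RBE and -0.47 in SNU1079 at 16 h when libraries are scaled to 50 cytosolic ribosomal protein genes, of which 49 were higher in RBE at 16 h. It moves by -0.33 and -0.36 when libraries are scaled to equal sums. On the ribosomal protein scale 4 members were higher and 29 lower in RBE at 16 h, beside 919 and 10632 of all 17860 tested genes. In SNU1079 at 16 h 13 members were higher and 16 lower, beside 2563 and 6970 of all tested genes. At 6 h on that scale the members were 12 and 4 in RBE (1456 and 2205 of all tested genes). In SNU1079 they were 5 and 10 (1303 and 3937). Equal sums gave 13 higher and 18 lower for RBE at 16 h (2908 and 6475 of all tested genes), against 13 and 14 for SNU1079 (3068 and 6599). RRN3, RRP9, NOB1, NOP2 and DDX56 had positive values on every scale in both lines at 16 h. Of the members called higher in RBE at 16 h, the other 11 turned below 0 on the ribosomal protein scale. Those called lower stayed below 0 on every scale.

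Of the 7 genes of polymerase I transcription, 3 were higher and 1 lower in RBE at 6 h, 3 and 3 at 16 h, and in SNU1079 2 and 1, then 4 and 1. The initiation factor RRN3 had the largest rise, while the largest subunit POLR1A and the promoter factor UBTF were lower in RBE at 16 h. RRN3 (normalised counts) in RBE was 1832, 2160 and 1954 in DMSO and 4110, 4296 and 3849 with YC-1 at 6 h. At 16 h it was 1934, 1727 and 1834 in DMSO and 5387, 5586 and 4945 with YC-1, and the groups did not overlap at either time. The log2 differences were 1.04 (SE 0.11, adjusted p = 6.94e-07) and 1.53 (SE 0.11, adjusted p = 5.16e-10). In SNU1079 RRN3 was 2160, 2005 and 1966 in DMSO and 3090, 4536 and 4303 with YC-1 at 6 h, with the lowest YC-1 value in YC-1 replicate 1. By 16 h RRN3 there was 1433, 1608 and 1694 in DMSO and 3914, 3697 and 3914 with YC-1. The log2 differences were 0.94 (SE 0.11, adjusted p = 2.21e-06) and 1.29 (SE 0.11, adjusted p = 7.66e-09), and 1.11 and 1.25 without the 3 libraries. The table holds 4 RRN3 pseudogene rows that together reached at most 11.3% of the RRN3 value, so some of its reads could belong to them.

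POLR1A in RBE was 2470, 2613 and 2759 in DMSO and 2109, 2307 and 1810 with YC-1 at 6 h. The difference of -0.34 missed the threshold (adjusted p = 0.083). At 16 h POLR1A was 3015, 2933 and 3695 in DMSO and 1271, 1311 and 1454 with YC-1, every YC-1 library below every DMSO library, with a log2 difference of -1.25 (SE 0.14, adjusted p = 1.59e-07). POLR1A in SNU1079 was 3388, 3350 and 3677 in DMSO and 2997, 2316 and 2094 with YC-1 at 6 h and the difference was -0.51 (SE 0.14, adjusted p = 0.00825). At 16 h in SNU1079 it was 2873, 2096 and 2969 in DMSO and 2023, 2043 and 1838 with YC-1, the lowest DMSO value just above the highest YC-1 value, and the difference was -0.41 (SE 0.14, adjusted p = 0.0159). The POLR1A call in SNU1079 was lost at 6 h in 1 of 6 fits that left out a single library (YC-1 replicate 3) and at 16 h in 3 of 6 (DMSO replicates 1 and 3 and YC-1 replicate 3), where values ran from -0.57 to -0.32.

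UBTF, which bends the ribosomal DNA promoter, fell in RBE at 16 h from 2423, 2457 and 2696 in DMSO to 1483, 1507 and 1535 with YC-1, a difference of -0.74 (SE 0.12, adjusted p = 2.9e-05). Its call in RBE at 6 h (-0.35, adjusted p = 0.0388) was lost in 6 of 6 fits that left out a single library, with values of -0.39 to -0.31. In SNU1079 its differences of -0.22 and -0.21 did not pass the test. POLR1C, a subunit shared with polymerase III, rose in RBE at 6 h from 898, 841 and 868 to 1582, 1686 and 1652, a difference of 0.92 (SE 0.09, adjusted p = 1.53e-07). Its differences were 0.83 in RBE at 16 h (-0.16 on the ribosomal protein scale), 0.40 in SNU1079 at 6 h and 0.85 at 16 h. POLR1B, the other large catalytic subunit, was called in none of the 4 comparisons, with differences of 0.40, -0.27, 0.09 and 0.20 in the order RBE 6 h, RBE 16 h, SNU1079 6 h and SNU1079 16 h.

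DDX21, an RNA helicase that acts on the precursor RNA and on polymerase I transcription, had differences in the same order of 0.58, 0.66, 0.47 and 1.28, of which SNU1079 at 6 h was not called (adjusted p = 0.0542). In SNU1079 at 6 h its YC-1 libraries held 8305, 15538 and 15201, so replicate 1 lay within the DMSO range of 9388, 9538 and 8193. Without the 3 libraries that difference was 0.77 and was called. DDX21 in RBE at 16 h was -0.34 on the ribosomal protein scale, and its call in RBE at 6 h was lost in 4 of 6 fits that left out a single library (0.49 to 0.65). MYBBP1A, a nucleolar protein known to restrain polymerase I, was -0.37 (SE 0.15, adjusted p = 0.0436) in RBE at 16 h, a call lost in 5 of 6 such fits (-0.43 to -0.27), and 0.65 (SE 0.15, adjusted p = 0.000912) in SNU1079 at 16 h.

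**Figure D2:**
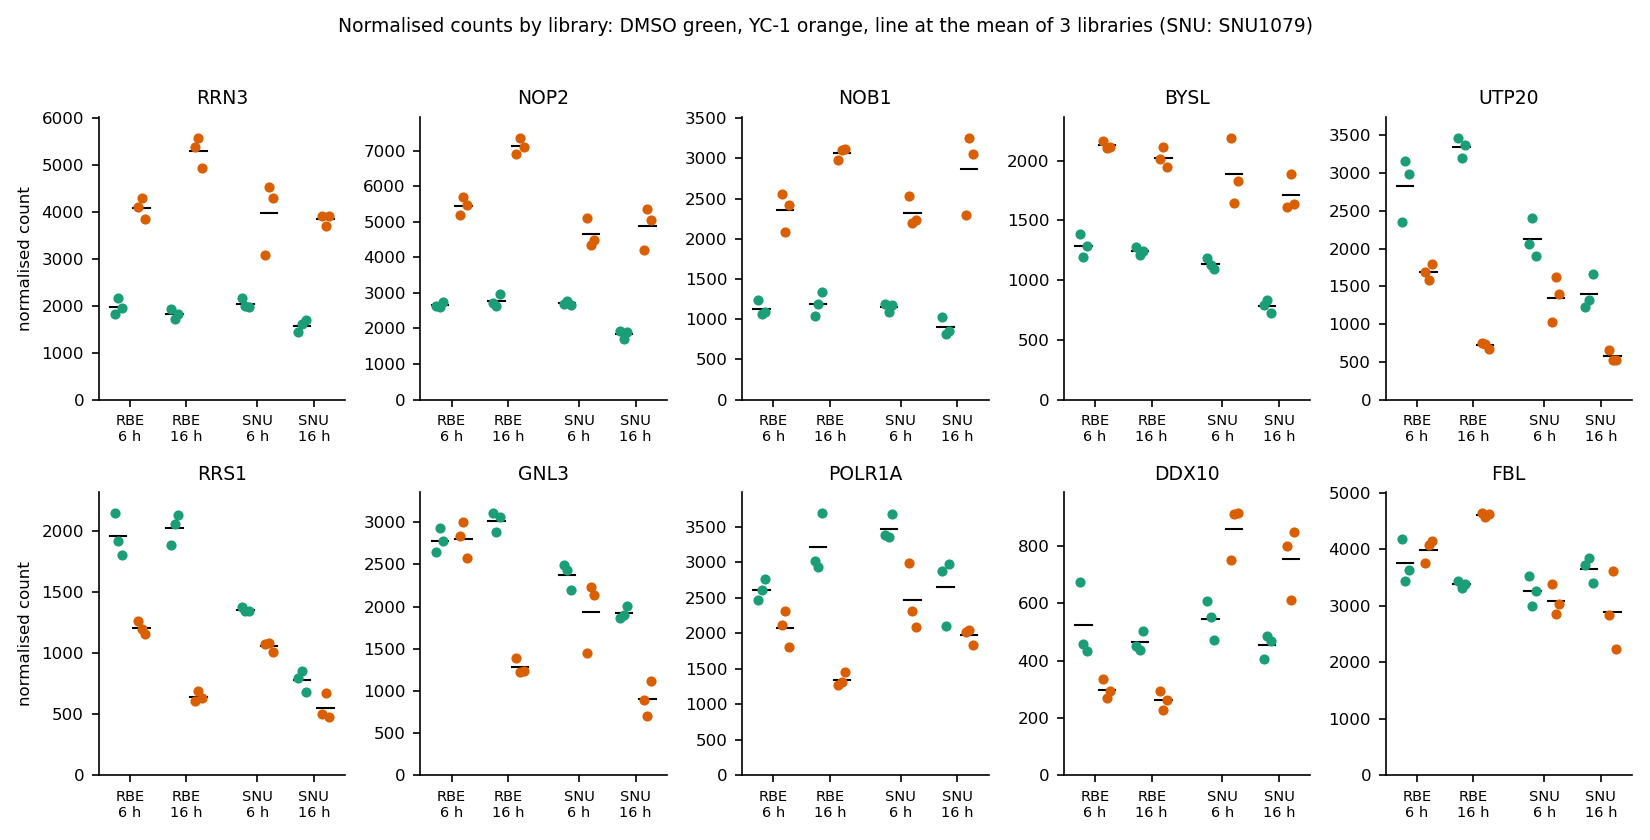
Normalised counts (y axis, from 0) of 10 members are plotted for each of the 24 libraries by line and time, DMSO beside YC-1, with a line at the mean of 3 libraries. The YC-1 libraries of RRN3, NOP2, NOB1 and BYSL lie above all DMSO libraries of their line and time, those of UTP20 and RRS1 lie below, and those of DDX10 lie below in RBE and above in SNU1079.

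Of the 3 box C/D proteins 1 was higher at 6 h in each line, 2 were higher in RBE at 16 h, and 1 was higher and 1 lower in SNU1079 at 16 h. NOP56, a core scaffold of the box C/D particle, was higher in all 4 comparisons, by 0.36 and 0.69 in RBE and by 0.61 and 0.94 in SNU1079 (-0.31 in RBE at 16 h on the ribosomal protein scale). Its paired scaffold NOP58 passed the test in none, with differences from -0.08 to 0.36. Fibrillarin (FBL), the methyltransferase of the particle, was 3439, 3317 and 3384 in DMSO and 4638, 4571 and 4625 with YC-1 in RBE at 16 h, a difference of 0.45 (SE 0.12, adjusted p = 0.00434) that turned to -0.55 on the ribosomal protein scale. In SNU1079 at 16 h it was 3715, 3842 and 3405 in DMSO and 2836, 3604 and 2227 with YC-1, with overlap of the groups and a difference of -0.36 (SE 0.12, adjusted p = 0.0169). That call was lost without DMSO replicate 2 or without YC-1 replicate 3 (2 of 6 fits, -0.54 to -0.19), and the difference was -0.53 without the 3 libraries.

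Of the 4 box H/ACA proteins none was lower in any comparison, 1 was higher at 6 h and 2 at 16 h in RBE, and 0 and then 3 in SNU1079. The pseudouridine synthase DKC1 rose in RBE at 6 h from 4826, 4839 and 4960 to 6830, 6845 and 6812, a difference of 0.49 (SE 0.07, adjusted p = 4.15e-05). At 16 h in RBE it was -0.07 and not called. For SNU1079 the DKC1 difference was -0.08 and not called at 6 h and 0.39 (SE 0.07, adjusted p = 0.000156) at 16 h. The 16 h rise in SNU1079 was measured against DMSO at 16 h, in which DKC1 had itself fallen: against DMSO at 6 h the value was -0.02, and on the ribosomal protein scale it was -0.08. NHP2 and NOP10, core proteins of the same particle, rose at 16 h by 0.87 and 0.99 in RBE (-0.12 and -0.01 on the ribosomal protein scale) and by 0.51 and 0.46 in SNU1079. The NOP10 call in SNU1079 was lost without YC-1 replicate 1, whose value of 2558 lay above the other YC-1 values of 1320 and 1663, and NOP10 there was -0.01 on the ribosomal protein scale. The NHP2 call was lost without DMSO replicate 3 or YC-1 replicate 2 (0.33 to 0.67). GAR1, the remaining core protein, was called in none.

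Of the abundant nucleolar proteins, nucleostemin (GNL3), a GTPase known from stem and tumour cells, was lower at 16 h in both lines and not called at 6 h. GNL3 in RBE was 2643, 2929 and 2773 in DMSO and 2834, 3010 and 2575 with YC-1 at 6 h, with overlapping groups. At 16 h GNL3 was 3111, 2887 and 3059 in DMSO and 1392, 1221 and 1235 with YC-1, every YC-1 value below every DMSO value, and the difference was -1.24 (SE 0.15, adjusted p = 4.24e-07). In SNU1079 it was 1861, 1896 and 2005 in DMSO and 893, 702 and 1112 with YC-1 at 16 h, a difference of -1.11 (SE 0.15, adjusted p = 1.77e-06), or -0.97 without the 3 libraries. NOLC1, a chaperone of snoRNPs, was higher in all 4 comparisons by 0.72, 0.96, 0.32 and 0.94, with -0.04 in RBE at 16 h on the ribosomal protein scale. Nucleolin (NCL) was called only in SNU1079 at 16 h among the 4 comparisons (0.57, adjusted p = 0.00216), from 20301, 24850 and 25140 to 29599, 32706 and 42584. Nucleophosmin (NPM1), with 38288 ± 1798 normalised counts in RBE in DMSO at 6 h (SD, n = 3), was -0.05, 0.02 and -0.01 in the comparisons that were not called (-0.98 in RBE at 16 h on the ribosomal protein scale and -0.30 with equal sums). It was -0.45 (SE 0.12, adjusted p = 0.00353) in SNU1079 at 16 h, where YC-1 replicate 2 had the lowest value. Fits that left out a single library gave -0.58 to -0.26, the smallest drop without that replicate. Without the 3 libraries NPM1 was -0.28 there and kept its call.

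Of the 13 small subunit members, 6 were higher and 2 lower in RBE at 6 h, 4 and 5 at 16 h, and in SNU1079 4 and 2, then 8 and 4. The highest and the lowest difference of any member over the 4 comparisons lay here (RRP9 in SNU1079 and UTP20 in RBE, both at 16 h). NOB1, the nuclease that makes the final cut of 18S rRNA, was 1043, 1186 and 1335 in DMSO and 2983, 3103 and 3119 with YC-1 in RBE at 16 h. NOB1 in SNU1079 at the same time was 1033, 813 and 859 in DMSO and 2293, 3259 and 3055 with YC-1. Its YC-1 libraries lay above all DMSO libraries in all 4 comparisons. Its differences were 1.06 (SE 0.13, adjusted p = 2.45e-06) and 1.38 (SE 0.13, adjusted p = 1.32e-08) in RBE, and 1.01 (SE 0.13, adjusted p = 4.01e-06) and 1.66 (SE 0.13, adjusted p = 1e-09) in SNU1079. RRP9, a protein of the U3 snoRNP, was 0.82 (SE 0.18, adjusted p = 0.00208) and 1.37 (SE 0.18, adjusted p = 2.25e-06) in RBE and 1.67 (SE 0.18, adjusted p = 1.63e-07) in SNU1079 at 16 h, where its YC-1 values of 1736, 2507 and 1379 spread widely above DMSO values of 577, 628 and 515. At 6 h in SNU1079 its difference of 0.46 did not pass (adjusted p = 0.0685).

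UTP20, a large scaffold protein of the small subunit processome, had the lowest difference of the 42 in 3 of the 4 comparisons, all but RBE at 6 h. In RBE it was 2357, 3156 and 2984 in DMSO and 1689, 1588 and 1791 with YC-1 at 6 h. At 16 h it was 3469, 3197 and 3372 in DMSO and 743, 742 and 668 with YC-1, and the differences were -0.74 (SE 0.15, adjusted p = 0.00102) and -2.22 (SE 0.15, adjusted p = 1.46e-10). UTP20 in SNU1079 was 2060, 2403 and 1903 in DMSO and 1033, 1623 and 1398 with YC-1 at 6 h and 1224, 1315 and 1666 in DMSO and 660.4, 529 and 529 with YC-1 at 16 h, with differences of -0.67 (SE 0.15, adjusted p = 0.00208) and -1.28 (SE 0.15, adjusted p = 4.38e-07). The groups overlapped in none of these. WDR43, LTV1 and HEATR1 were the other members of this role that were lower in both lines at 16 h. WDR43, of the complex that joins polymerase I transcription to early processing, was -0.04 in RBE at 6 h and -1.35 (SE 0.18, adjusted p = 1.97e-06) at 16 h, and 0.00 and -0.73 (SE 0.18, adjusted p = 0.00171) in SNU1079. The last ranged over -0.96 to -0.44 when single libraries were left out, smallest in size without YC-1 replicate 2. LTV1, which helps mature the 40S particle, was -1.06 (SE 0.18, adjusted p = 3.36e-05) in RBE and -0.94 (SE 0.18, adjusted p = 0.000134) in SNU1079 at 16 h. HEATR1, of the same early complex as WDR43, was -0.57 and -0.39 at 16 h. Its calls in SNU1079 at 6 h (-0.48) and at 16 h were each lost in 2 of 6 fits that left out a single library (-0.57 to -0.30 and -0.47 to -0.25): at 6 h without DMSO replicate 2 or YC-1 replicate 1, and at 16 h without DMSO replicate 3 or YC-1 replicate 2.

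BYSL (bystin), needed late in 40S maturation, was higher in all 4 comparisons, by 0.73 and 0.71 in RBE and 0.72 and 1.13 in SNU1079 (-0.29 in RBE at 16 h on the ribosomal protein scale). TSR1, a factor of the cytoplasmic 40S precursor, was higher by smaller amounts of 0.22 to 0.47. At 16 h in SNU1079 TSR1 was 0.00 on the ribosomal protein scale. In RBE at 16 h it turned to -0.10 with equal sums and -0.77 on the ribosomal protein scale, and its call was lost in 4 of 6 fits that left out a single library. RRP12, involved in export of the subunits, was 1.25 (SE 0.15, adjusted p = 6.94e-07) in SNU1079 at 16 h and 0.35 against DMSO at 6 h. In RBE its differences were 0.43, lost in 5 of 6 fits that left out a single library (0.35 to 0.52), and 0.30, which was not called. UTP15 was called in RBE at 6 h (0.78, adjusted p = 0.0146), though not without DMSO replicate 1 or YC-1 replicate 1 (0.73 to 0.82), and in SNU1079 at 16 h (0.85, adjusted p = 0.00319). Against DMSO at 6 h that SNU1079 value was 0.21 and not called. NOP14 was called only in SNU1079 at 16 h among the 4 comparisons (0.42, adjusted p = 0.00233), and there it was 0.23 and not called without the 3 libraries and -0.05 on the ribosomal protein scale.

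DDX10, an RNA helicase of early small subunit processing, was lower with YC-1 in RBE and higher in SNU1079 at both times. In RBE it was 676, 459 and 432 in DMSO and 334, 268 and 293 with YC-1 at 6 h and 452, 435 and 504 in DMSO and 293, 227 and 264 with YC-1 at 16 h. The differences were -0.78 (SE 0.17, adjusted p = 0.0014) and -0.83 (SE 0.17, adjusted p = 0.000268). In SNU1079 it was 608, 553 and 472 in DMSO and 750.2, 913 and 915 with YC-1 at 6 h and 406, 485 and 467 in DMSO and 802, 612 and 848 with YC-1 at 16 h, with differences of 0.66 (SE 0.17, adjusted p = 0.0049) and 0.72 (SE 0.17, adjusted p = 0.000997). No YC-1 library overlapped the DMSO range of its line and time, and no call was lost when a single library was left out, although the RBE 6 h value ran from -0.90 to -0.58, smallest without DMSO replicate 1. These values are on the authors' scale. In SNU1079 the ribosomal protein scale moves the median of all tested genes by -0.25 at 6 h and -0.47 at 16 h, so the DDX10 rises there are smaller on it. The DDX10 gene spans 275.9 kb of chromosome 11 (108665025 to 108940930, plus strand, GRCh38), the longest span among the members.

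Of the 11 large subunit members, 3 were higher and 1 lower in RBE at 6 h, 4 and 3 at 16 h, and in SNU1079 4 and 2 at both times. NOP2, the rRNA methyltransferase also known as the proliferation antigen p120, had the largest rise of these. In RBE it was 2632, 2599 and 2741 in DMSO and 5205, 5687 and 5478 with YC-1 at 6 h. At 16 h NOP2 was 2723, 2626 and 2974 in DMSO and 6910, 7372 and 7098 with YC-1, with differences of 1.04 (SE 0.09, adjusted p = 3.34e-08) and 1.36 (SE 0.09, adjusted p = 8.95e-11). In SNU1079 NOP2 was 2690, 2783 and 2671 in DMSO and 5109, 4338 and 4491 with YC-1 at 6 h and 1943, 1712 and 1893 in DMSO and 4203, 5368 and 5044 with YC-1 at 16 h. The differences there were 0.77 (SE 0.09, adjusted p = 1.41e-06) and 1.39 (SE 0.09, adjusted p = 8.36e-11), and no group overlapped its DMSO group. Against DMSO at 6 h the SNU1079 value at 16 h was 0.84. DDX56 (a helicase), PES1 (a partner of WDR12 in the PeBoW complex) and EBNA1BP2 rose beside it at 16 h, by 1.22, 0.90 and 0.92 in RBE, where PES1 was -0.10 and EBNA1BP2 -0.07 on the ribosomal protein scale, and by 0.73, 0.81 and 0.98 in SNU1079. At 6 h in SNU1079 the calls of DDX56 (0.33) and PES1 (0.39) were lost in 2 of 6 and 3 of 6 fits that left out a single library, and DDX56 was 0.24 and not called without the 3 libraries.

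RRS1, which brings the 5S RNP into the 60S precursor, fell. In RBE it was 2147, 1920 and 1807 in DMSO and 1261, 1199 and 1154 with YC-1 at 6 h and 1884, 2055 and 2134 in DMSO and 606, 686 and 632 with YC-1 at 16 h, differences of -0.70 (SE 0.12, adjusted p = 0.000111) and -1.66 (SE 0.12, adjusted p = 2.07e-10). In SNU1079 it was 1375, 1345 and 1346 in DMSO and 1073, 1084 and 1006 with YC-1 at 6 h and 793, 856 and 679 in DMSO and 496, 669 and 478 with YC-1 at 16 h, differences of -0.36 (SE 0.12, adjusted p = 0.0224) and -0.51 (SE 0.12, adjusted p = 0.000822). The 6 h call in SNU1079 was lost in 4 of 6 fits that left out a single library (-0.38 to -0.33). RRP1B was lower at 16 h by -0.57 in RBE and -0.37 in SNU1079, and GRWD1, a histone chaperone that also escorts a 60S protein, was -1.20 (SE 0.22, adjusted p = 0.000104) in RBE at 16 h and not called in SNU1079 (-0.21). NOP16, WDR12, DDX18 and NIP7 were called in none of the 4 comparisons.

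Between 6 h and 16 h in DMSO alone, 19 of the 42 members fell in SNU1079 and none was called in RBE. In RBE no member was called between DMSO at 16 h and at 6 h, 0.0448% of all tested genes were, and member values ran from -0.19 to 0.29. No member rose in SNU1079, where 4.75% of all tested genes were lower and 3.82% higher. The median of the members was -0.37. RRP12 fell from 1755, 1866 and 2084 to 1179, 1064 and 833, a difference of -0.90 (SE 0.15, adjusted p = 0.000587). RRS1 fell from 1375, 1345 and 1346 to 793, 856 and 679, a difference of -0.81 (SE 0.12, adjusted p = 0.000104). These groups did not overlap. DDX21 (-0.75), WDR43 (-0.74) and NOP16 (-0.66) followed, and POLR1C (-0.56) and NOP2 (-0.56) were also lower, while NCL (-0.14), NPM1 (0.06) and FBL (0.17) were not called. The SNU1079 count was 25 lower without DMSO 16 h replicate 1 and the other 2 libraries set aside, 10 when only the 6 libraries were fitted or on the ribosomal protein scale, and 12 to 18 when single libraries were left out, lowest without DMSO 16 h replicate 2. Of all 17860 tested genes, 1651 were lower without the libraries set aside, 481 with only the 6 libraries fitted and 696 on the ribosomal protein scale. The calls of DDX21 and WDR43 were lost in 1 of 6 and 3 of 6 fits that left out a single library (-0.90 to -0.63 and -0.84 to -0.69). By role, 5 of 7 polymerase I members, 7 of 13 small subunit members and 5 of 11 large subunit members fell, and none of the 3 box C/D members. Of the 19 calls behind these tallies, 9 were kept in every fit that left out a single library and 10 were lost in some. Lost most often were the calls of NOP14 (6 of 6), RRN3 (5 of 6), HEATR1 (4 of 6) and TSR1 (4 of 6).

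**Figure D3:**
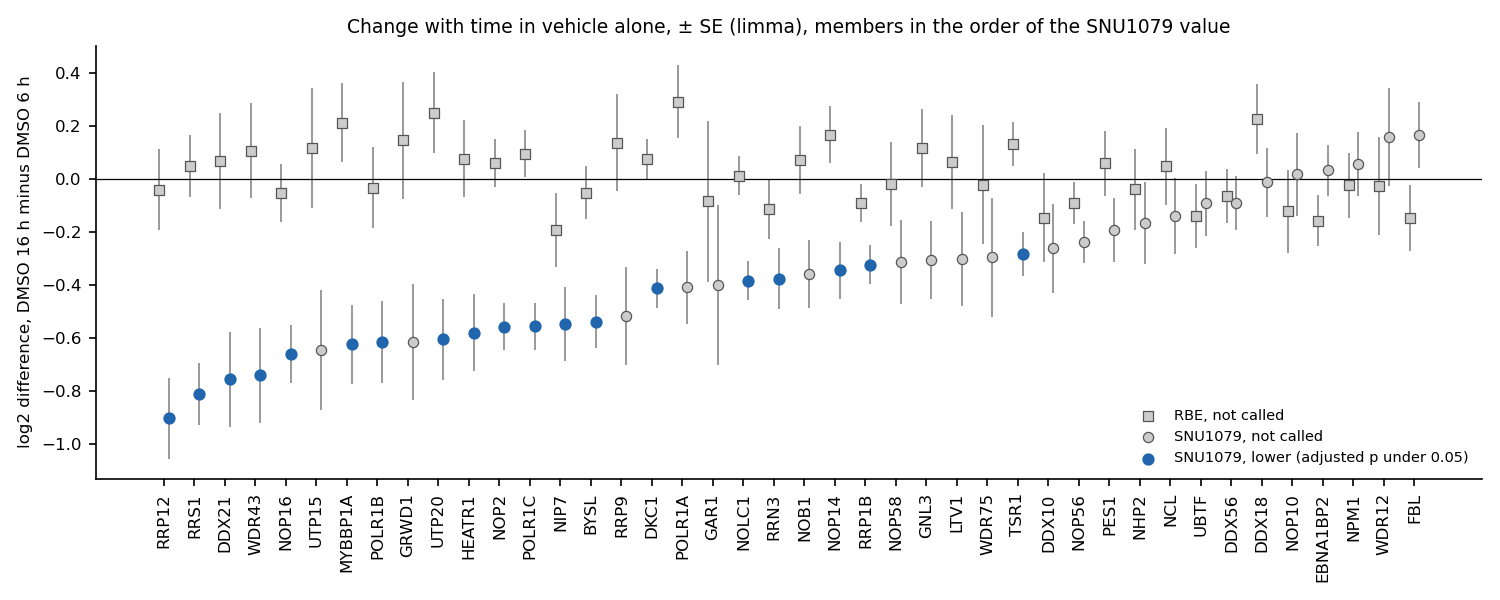
The log2 difference between DMSO at 16 h and DMSO at 6 h (y axis, with its SE) is plotted for the 42 members in RBE (squares) and SNU1079 (circles), ordered by the SNU1079 value. The RBE points scatter between -0.19 and 0.29, and the 19 called SNU1079 points lie between -0.90 and -0.28.

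The test of the difference between lines in this DMSO change called 8 members, all lower in SNU1079 (1.04% of all tested genes were lower and 0.924% higher): POLR1C, MYBBP1A, DKC1, UTP20, RRP12, NOP2, NOP16 and RRS1. RRS1 had the smallest adjusted p, with -0.86 (SE 0.16, adjusted p = 0.00642). The calls of RRP12 (-0.86) and UTP20 (-0.85) were each lost in 10 of 12 fits that left out a single library, that of MYBBP1A in 11 of 12, that of NOP16 in 10 of 12 and that of DKC1 in 2 of 12. The calls of POLR1C, NOP2 and RRS1 were kept in every such fit. Because the SNU1079 comparison at 16 h uses the same DMSO libraries, its members were also set against DMSO at 6 h, a choice made after the data were seen. Then 15 members were higher and 14 lower with YC-1 at 16 h in SNU1079, with a median of 0.00, and 17 and 12 in RBE, with a median of 0.21. Of all 17860 tested genes, 4803 were then higher and 4320 lower in SNU1079, and 4723 and 4593 in RBE. RRN3 (0.91), NOB1 (1.30), RRP9 (1.15) and NOP2 (0.84) were higher on that footing in SNU1079, and UTP20 (-1.89), WDR43 (-1.47), GNL3 (-1.42) and RRS1 (-1.32) lower.

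Some members moved early and others late. The YC-1 difference at 16 h minus that at 6 h was called higher for 5 members and lower for 10 in RBE (8.80% and 9.43% of all tested genes). On the ribosomal protein scale the counts were 0 and 36, beside 134 and 8663 of all 17860 tested genes. UTP20 (-1.48), WDR43 (-1.31, adjusted p = 0.00118) and GNL3 (-1.25, adjusted p = 0.000331) moved furthest down in RBE between the times, and NOP10 (0.87, adjusted p = 0.009), NHP2 (0.76, adjusted p = 0.0191) and EBNA1BP2 (0.75, adjusted p = 0.000736) furthest up. Those upward values turned to -0.05, -0.17 and -0.17 on the ribosomal protein scale, and the NHP2 call was lost without DMSO 6 h replicate 1 or YC-1 16 h replicate 3 (0.63 to 0.86). In SNU1079, 11 members were called higher and 2 lower (8.47% and 8.53%), or 14 and 6 without the 3 libraries (2628 and 2715 of all 17860 tested genes). RRP9 (1.21, adjusted p = 0.00317), RRP12 (0.88, adjusted p = 0.00796) and MYBBP1A (0.84, adjusted p = 0.00994) moved furthest up. The members that moved down were LTV1 (-0.84, adjusted p = 0.0257) and GNL3 (-0.80, adjusted p = 0.0114), and the LTV1 call was lost in 6 of 12 fits that left out a single library. The SNU1079 values share their DMSO libraries with the fall in vehicle described above, in which RRP12 was -0.90, MYBBP1A -0.62, RRP9 -0.52 (not called), LTV1 -0.30 (not called) and GNL3 -0.30 (not called).

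The lines differed in few members at 6 h. There the YC-1 difference in SNU1079 minus that in RBE was called higher for 1 member and lower for 2 (0.767% and 0.773% of all tested genes): DDX10 (1.44, adjusted p = 0.00181), DKC1 (-0.57, adjusted p = 0.00516) and POLR1C (-0.52, adjusted p = 0.0382). The POLR1C call was lost in 11 of 12 fits that left out a single library (-0.58 to -0.45). At 16 h it was called higher for 10 and lower for 2 (8.17% and 6.43%). On the ribosomal protein scale the counts were 24 and 0, beside 4906 and 313 of all 17860 tested genes. DDX10 (1.55, adjusted p = 0.000168), RRS1 (1.14, adjusted p = 8.89e-05) and MYBBP1A (1.02, adjusted p = 0.00258) had the largest values upward, and FBL (-0.81, adjusted p = 0.00356, -0.28 on the ribosomal protein scale) and DDX56 (-0.49, adjusted p = 0.0252) were the members called lower. DDX56 was 0.04 on the ribosomal protein scale and lost its call in 5 of 12 fits that left out a single library. Of these, RRS1 and MYBBP1A were members whose DMSO level fell with time in SNU1079, and set against DMSO at 6 h their SNU1079 values at 16 h were -1.32 and 0.03, beside -1.61 and -0.15 in RBE. POLR1A, UBTF, UTP20, DKC1, RRP12, BYSL and GRWD1 were the remaining members called between lines at 16 h, all higher in SNU1079. Against DMSO at 6 h, UTP20 was -1.89 in SNU1079 beside -1.97 in RBE, DKC1 -0.02 beside 0.01, RRP12 0.35 beside 0.26 and BYSL 0.59 beside 0.66. On the same footing POLR1A was -0.82 in SNU1079 beside -0.96 in RBE, GRWD1 -0.82 beside -1.05 and UBTF -0.30 beside -0.88. The line calls of UBTF, BYSL and GRWD1 were lost in 10 of 12, 10 of 12 and 7 of 12 fits that left out a single library.

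**Figure D4:**
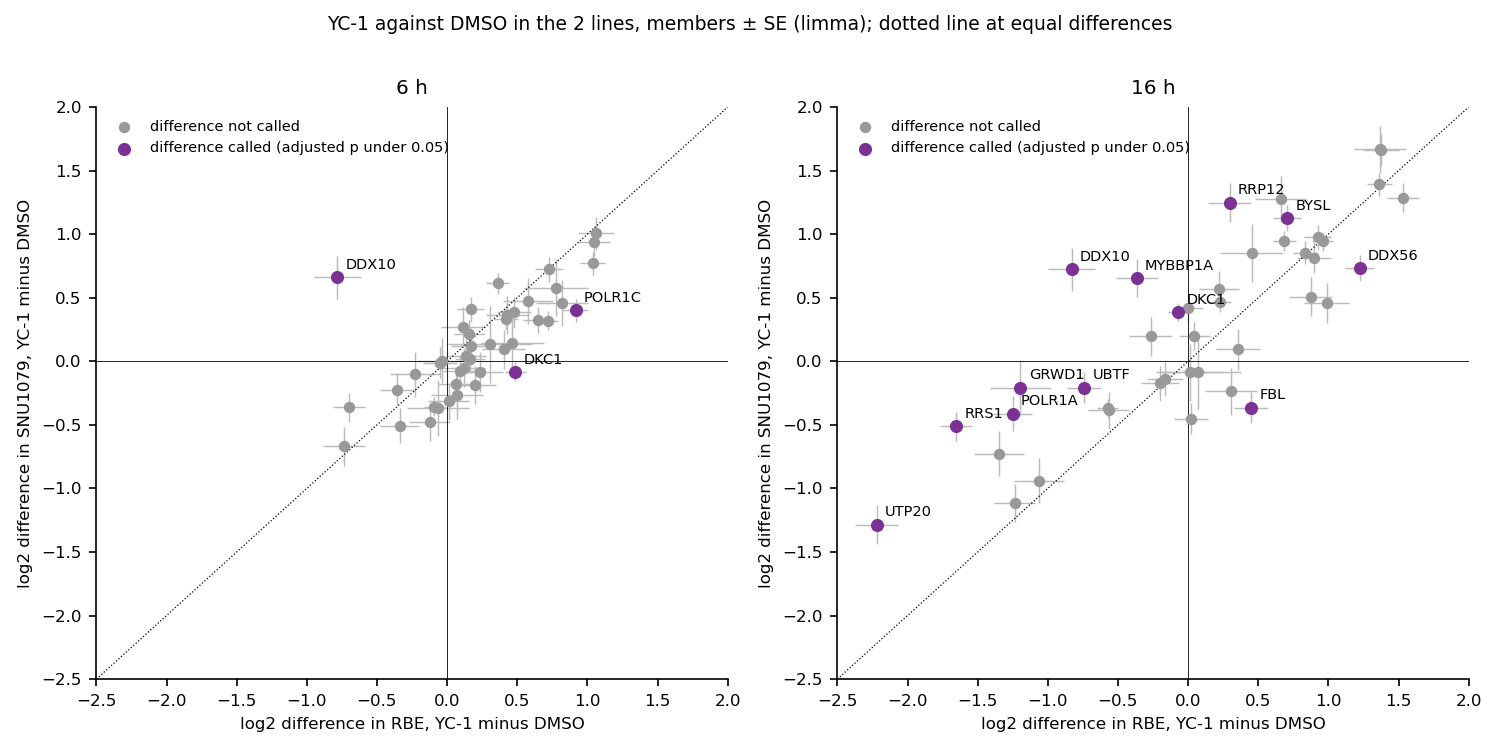
The log2 difference between YC-1 and DMSO in SNU1079 (y axis) is plotted against that in RBE (x axis) for the 42 members at 6 h and 16 h, with SEs and a dotted line of equality. DDX10 lies in the upper left at both times, and purple marks the 3 members called different between the lines at 6 h and the 12 at 16 h.

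Levels differed widely between members in DMSO at 6 h. Per kilobase of annotated exon in RBE, NPM1 stood highest at 10002 ± 470.0 normalised counts per kb (SD, n = 3), then NCL at 5566 ± 249, DDX21 at 2928 ± 324 and NOP10 at 2748 ± 160.0. DDX10 stood lowest at 60.4 ± 15.5, below UTP15 at 131 ± 7.21. DDX21 and NOP10 differed by less than the SD of DDX21. In SNU1079 NPM1 (9239 ± 429) and NCL (3710 ± 263) again led and DDX10 (62.9 ± 7.86) was again lowest. Of single members, 8 were higher and 10 lower in SNU1079 than in RBE in DMSO at 6 h (27.2% and 29.2% of all tested genes), and 3 and 25 at 16 h (25.9% and 29.3%). At 6 h the ends of the range were TSR1 (1.03, adjusted p = 8.88e-10) and EBNA1BP2 (-1.25, adjusted p = 5.67e-10). At 16 h they were DDX56 (0.63, adjusted p = 2.09e-05) and DDX21 (-1.52, adjusted p = 3.27e-07).

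The rest of the pathway comprised 136 other tested genes, counted here on the authors' scale alone, and every value named below passed the test. Of these 33 were higher and 11 lower in RBE at 6 h, and 57 and 32 at 16 h. In SNU1079 the counts were 29 and 19 at 6 h and 64 and 28 at 16 h. As shares of the 136 those called higher made up 24.3%, 41.9%, 21.3% and 47.1%, beside 11.6%, 27.3%, 14.0% and 28.7% of all tested genes. Those called lower made up 8.09%, 23.5%, 14.0% and 20.6%, beside 12.4%, 26.6%, 14.2% and 25.8%. Of 14 other polymerase I subunits and initiation factors, 6 were higher and 3 lower in RBE at 16 h and 8 and 2 in SNU1079. ZNRD1, a small polymerase I subunit, was 1.72 in RBE, while TAF1B, a subunit of SL1, was -0.85 in RBE and -0.76 in SNU1079 at 16 h. Its partner TAF1C was 1.09 and 1.46 in SNU1079. Among 44 other small subunit factors, 17 were higher and 10 lower in RBE at 16 h and 21 and 11 in SNU1079. The kinase RIOK2, which releases factors from the 40S precursor, rose early and late: 1.27 was its difference in RBE at 6 h and 2.35 that at 16 h, beside 1.05 and 1.82 in SNU1079. IMP3 and UTP18 of the processome were -1.71 and -1.68 in SNU1079 at 16 h.

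Among 51 other large subunit factors, 25 were higher and 12 lower in RBE at 16 h and 29 and 6 in SNU1079. SBDS and ZNF622, which act on the late 60S particle, rose at 16 h, SBDS by 1.56 in RBE and 1.54 in SNU1079 and ZNF622 by 1.60 and 1.31. MDN1, the giant ATPase that remodels the 60S precursor, was -1.52 and -1.49. Of 10 other snoRNP assembly factors, 3 were higher and 2 lower in RBE at 16 h and 2 and 4 in SNU1079. SHQ1, the chaperone of DKC1, was -0.50 at 6 h and -0.93 at 16 h in RBE, and -0.44 and then -0.85 in SNU1079. Of 18 exosome subunits and rRNA nucleases, 6 were higher (33.3%) and 5 lower (27.8%) in RBE at 16 h and 4 (22.2%) and 5 (27.8%) in SNU1079, near the shares of all tested genes, with EXOSC3 at -1.11 and -1.21. In DMSO, 29 of the 136 were lower at 16 h than at 6 h in SNU1079 and none was higher (4.75% and 3.82% of all tested genes). None was called in RBE (0.0448%).

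MYC, the driver named above, was 3227 on average in RBE in DMSO at 6 h and 4463 with YC-1, a log2 difference of 0.47 (SE 0.11, adjusted p = 0.00364). At 16 h in RBE MYC was lower, by -1.29 (SE 0.11, adjusted p = 5.12e-09). In SNU1079 it was 0.26 at 6 h (adjusted p = 0.0938) and -0.68 at 16 h (adjusted p = 2.95e-05), and in DMSO it fell with time by 0.61 on the log2 scale (adjusted p = 0.0013). Its part in the members' differences was not tested.

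Members also differ in length and in what lies inside them. Over 42 members, Spearman's rho between genomic span and the YC-1 log2 difference was -0.19, -0.26, -0.12 and -0.14 in the 4 comparisons, given as a description of genes measured in the same libraries. Among all tested genes over 50 kb long, 49.3% were lower and 9.79% higher in RBE at 16 h, and of the 9 such members 5 were lower and 2 higher. In SNU1079 at 16 h the shares were 42.9% and 13.1%, and 4 of the 9 were lower and 4 higher. At 6 h 2 of the 9 were lower and 2 higher in RBE, and 3 and 3 in SNU1079. Among genes under 20 kb, 13.9% were lower and 39.2% higher in RBE at 16 h, and of the 22 such members 5 and 11. In SNU1079 at 16 h the shares were 16.1% and 38.1%, and the members 3 and 13. Small nucleolar RNA genes lie inside 8 members on the same strand (POLR1C, NOP56, NOP58, DKC1, NCL, GNL3, WDR43 and TSR1). With YC-1 at 16 h 3 of these 8 were higher and 2 lower in RBE, and 5 and 2 in SNU1079. Exons of 16 members overlap those of a tested gene on the opposite strand, and for 7 (NHP2, HEATR1, NOP14, NOB1, TSR1, EBNA1BP2 and NIP7) over 15% of their exon bases overlap a single such gene. The largest such share was that of NHP2 with RMND5B (27.4%). Whether the counting used strand is not given in the sources used here, so reads of such pairs cannot be told apart.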

How the data were processed

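The authors deposited 1 table of normalised counts for 24 libraries of poly(A) RNA, treated here as a signal on the authors' scale. The deposited values are not whole reads, so reads per library are unknown and no counting interval is given. STAR, DESeq2 and hg38 are named in the submitters' processing notes, with no versions. Libraries were TruSeq Stranded mRNA, per the labels' protocols, and whether counting used strand is not given in the sources used here. Per the labels' design text the 3 libraries of a group are biological replicates.

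Genes with at least 10 normalised counts in at least 3 libraries (17860 of 57820 rows) were log-transformed as log2(normalised count + 1) and tested by limma (3.58.1; R 4.3.3), with an intensity trend, 1 mean per group over all 24 libraries and 16 residual degrees of freedom. Each gene has 1 spread shared by both lines, so its SEs and adjusted p can be too small for the line whose libraries vary more. Fold changes on this scale understate those of low genes. P-values are two-sided and adjusted by Benjamini-Hochberg over all genes tested, and a gene was called at an adjusted p under 0.05. With 3 against 3 libraries an exact permutation test cannot go below 10% (p = 0.1). The fit was also run on simulated data in which a gene had the same spread in every group. That run does not cover lines that differ in spread. Scripts used Python 3.11.15 and figures matplotlib 3.10.9.

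The 42 members and the pathway and marker lists were chosen with earlier results of these data known. All members are named, with per-library values in each role for the highest and lowest called differences, for those differing most between times, lines or DMSO times, and for NOP2, NCL, NPM1, FBL, DKC1, POLR1A, POLR1B, UBTF and RRN3. From each other pathway list up to 3 genes per direction could be named, and MYC alone from outside. Gene spans and exons came from GENCODE 29 by Ensembl identifier, and promoters from RefSeq. Alternatives covered the pseudocount, the filter, 4 rescalings, the variance model, the libraries fitted, the replicate number as a block and leaving out each library.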

Additional observations from a re-analysis of the deposited data

Results flagged for a closer look

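Each value here is a difference between 2 log2 differences that passed limma's test of that difference (adjusted p under 0.05); the cause of each was not tested. Between 6 h and 16 h in RBE, the YC-1 difference moved up for NOP10 (0.87), NHP2 (0.76) and EBNA1BP2 (0.75), which all turn below 0 on the ribosomal protein scale. It moved down for UTP20 (-1.48), WDR43 (-1.31) and GNL3 (-1.25). In SNU1079 it moved up for RRP9 (1.21), RRP12 (0.88) and MYBBP1A (0.84) and down for LTV1 (-0.84) and GNL3 (-0.80). GNL3 moved down in both lines. The LTV1 call was lost in 6 of 12 fits that left out a single library, and the NHP2 call in 2 of 12.

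Between the lines at 6 h, SNU1079 minus RBE was 1.44 for DDX10, -0.57 for DKC1 and -0.52 for POLR1C. At 16 h it was 1.55 for DDX10, 1.14 for RRS1, 1.02 for MYBBP1A, -0.81 for FBL and -0.49 for DDX56. DDX10 is the member called in opposite directions in the 2 lines at both times on the authors' scale. On that scale each of the 12 YC-1 libraries lay outside the DMSO range of its line and time. Between the lines in DMSO, the change from 6 h to 16 h differed by -0.86 for RRP12, -0.86 for RRS1 and -0.85 for UTP20. The RRP12 and UTP20 calls were each lost in 10 of 12 fits that left out a single library, and the RRS1 call was kept in all. Such fits lost the POLR1C call at 6 h in 11 of 12 and the DDX56 call at 16 h in 5 of 12.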

How the results depend on the processing

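The split into higher and lower members in the 4 YC-1 comparisons kept its counts within 1.5 times under both other pseudocounts, both filters, upper quartile scaling, no intensity trend and the replicate block, and no called difference of a member reversed when a single library was left out. Differences that were not called could change sign, and the reversals below cover members called under at least one of the settings compared. Scaling to the ribosomal protein genes moved most. In RBE at 16 h it gave 4 members higher and 29 lower, with reversed values for POLR1C (-0.16), DDX21 (-0.34), NOP56 (-0.31), NOP58 (-0.64), FBL (-0.55), NHP2 (-0.12), GAR1 (-0.92), NOP10 (-0.01), NCL (-0.78), NPM1 (-0.98), NOLC1 (-0.04), WDR75 (-0.98), RRP12 (-0.70), BYSL (-0.29), TSR1 (-0.77), NOP16 (-0.95), WDR12 (-0.69), PES1 (-0.10) and EBNA1BP2 (-0.07). In SNU1079 it gave 5 and 10 at 6 h and 13 and 16 at 16 h, with reversed values at 16 h for DKC1 (-0.08), NOP10 (-0.01), NOP14 (-0.05), TSR1 (0.00) and NOP16 (-0.27), while POLR1B (-0.27) and NOP58 (-0.38) changed sign uncalled. The change between times went to 0 higher and 36 lower in RBE, with reversed values for RRN3 (-0.43), NHP2 (-0.17), NOP10 (-0.05), EBNA1BP2 (-0.17) and DDX56 (-0.35), and to 2 higher in SNU1079. The line difference at 16 h went to 24 higher and 0 lower (DDX56 0.04), and the DMSO fall in SNU1079 to 10 members. Equal sums gave 13 higher in SNU1079 at 16 h, 1 and 18 for the time change in RBE and 2 and 6 in SNU1079, and 4 members for the DMSO change between lines, with NPM1 (-0.30) and TSR1 (-0.10) reversed in RBE at 16 h. Equal sums without mitochondrial genes gave 2 higher for the time change in RBE, 5 and 6 in SNU1079, and 5 for the DMSO change between lines. How far the shift of all genes accounts for these counts was not tested. For the DMSO fall in SNU1079 the median of all tested genes moved by -0.05 on the ribosomal protein scale.

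Array weights gave 23 higher and 7 lower in RBE at 6 h, 19 and 8 in SNU1079 at 6 h, 1 member higher with time in DMSO in SNU1079, 11 higher for the time change in RBE and 9 lower in SNU1079, 3 and 8 between lines at 6 h, 4 lower at 16 h, 1 and 24 for the DMSO change between lines, and 16 lower in SNU1079 in DMSO at 6 h. Without the 3 SNU1079 libraries set aside, chosen after the data were seen, 8 members were lower in SNU1079 at 6 h, the time change was higher for 11 in RBE and lower for 6 in SNU1079, the line difference at 6 h was 2 and 4, and the DMSO change between lines was lower for 19. The RBE differences in that fit were unchanged, and only the shared spread was not. Fitting only the 12 libraries of a line gave 3 lower in SNU1079 at 6 h, 8 lower with time in DMSO, 10 higher for the time change in RBE and 5 and 0 in SNU1079. Fitting only the 6 libraries compared gave 2 lower in SNU1079 at 6 h, 4 at 16 h and 10 with time in DMSO. In RBE it gave 20 higher and 5 lower at 6 h and 20 and 13 at 16 h. The fits of the 12 RBE libraries gave 21 and 6, then 21 and 14. The main fit shares 1 spread per gene over both lines. The root mean square deviations of the libraries were 0.272 to 0.396 in RBE and 0.330 to 0.589 in SNU1079 (log2). Why these counts fell in SNU1079 and rose in RBE was not tested. Pooling both times gave 9 lower in RBE against 4 at 6 h and 5 lower in SNU1079 against 10 at 16 h. Against DMSO at 6 h, also chosen after the data were seen, the SNU1079 16 h values of POLR1B (-0.42), DKC1 (-0.02) and NOP16 (-0.46) reversed, and NOP58 (-0.22) changed sign uncalled.

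Counts of few members moved most: the time change in SNU1079 was lower for 4 with a filter at 50 and with upper quartiles, the line difference at 6 h was lower for 1 with upper quartiles and with no filter, and the DMSO change between lines was lower for 5 with upper quartiles and for 4 with no filter and with no trend. Leaving out single libraries gave 3 to 6 lower in SNU1079 at 6 h, 12 to 18 lower with time in DMSO in SNU1079, 1 to 5 lower for the time change in SNU1079, 1 to 2 and 1 to 4 lower between lines at 6 h and 16 h, and 3 to 8 for the DMSO change between lines. The cause of the moved counts was not tested.

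Correlations between the deviations of same-numbered libraries were between -0.124 and 0.085 for RBE and between -0.206 and 0.34 for SNU1079. These values cannot show whether the cultures were set up in pairs. With the replicate number as a block, 14 members were higher and 3 lower in RBE at 6 h, 16 and 12 at 16 h, 14 and 5 in SNU1079 at 6 h and 22 and 10 at 16 h, and the line difference at 6 h was lower for 1 and the DMSO change between lines for 4. Reads per library are unknown, so what depth limits cannot be stated; all members reached 10 normalised counts in at least 3 libraries.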
